A study of Mus musculus with 14 samples.

Results

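The Hox cluster genes were followed in hematopoietic cells sorted by the GFP label they had kept, a readout of how often they had divided. Members were all genes whose probe sets carry a single gene symbol made of Hoxa, Hoxb, Hoxc or Hoxd and a number, each read from the brightest of its probe sets by mean over 14 arrays. This gave 33 genes among 18194 genes in all, from 48 probe sets: 9 of the A cluster, 9 of the B cluster, 7 of the C cluster and 8 of the D cluster. Hox genes without a probe set of a single symbol were not analysed here.

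Cells were LSK bone marrow cells, negative for lineage markers and positive for Sca1 and Kit, among which hematopoietic stem cells (HSCs) are found together with multipotent progenitors. All came from hCD34 x H2BGFP double transgenic mice on a C57BL/6 background (at least 10 backcross generations), in which a human CD34 promoter, active in stem and multipotent progenitor cells, drives a tetracycline-off transactivator and so a GFP-tagged histone H2B. Every group had drunk water with doxycycline (1 mg/ml) for 12 weeks, begun when the mice were 6 to 8 weeks old, which ends labelling, after which the GFP is shared out between daughter cells at each division. Cells were sorted at 5 ranked levels, GFP0 (2 arrays), GFP1 (3), GFP2 (3), GFP3 (2) and GFP4 (4). The levels were about 1 to 2 divisions apart by dilution, so GFP4 cells are taken to have divided least. The label a cell held before dilution was not examined here, so a low level need not come from divisions alone. The labels call the samples biological replicates but do not say whether mice were pooled or how many gave a sample, and p-values measure the spread between these samples.

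Hox genes encode homeodomain transcription factors that lie side by side in the A, B, C and D clusters. The number in a name gives the paralogue group, the set of genes at the corresponding place in each cluster, running from the anterior (low) to the posterior (high) end. In the embryo they set position along the body axis. In the bone marrow A and B cluster genes are known from stem and progenitor cells, where MLL complexes keep them active and Polycomb complexes silence them, and their proteins bind DNA with cofactors of the TALE class, the PBX and MEIS proteins.

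Values are log2 expression, on which a difference of 1 is a doubling, and a probe set's level says nothing about another's. Array medians ran from 6.96 to 7.18 and interquartile ranges from 2.09 to 2.73, with the narrowest spread in GFP0 replicate 1 and the next in GFP4 replicate 1. Among the sort's own markers, Kit was at 8.51 ± 0.42 (SD, n = 2) in GFP0 and at 9.15 ± 0.34 (SD, n = 4) in GFP4, and Ly6a, which encodes Sca1, had no probe set of a single symbol. Some markers of myeloid lineages were bright: the mean log2 level of 8 of 9 listed neutrophil and monocyte genes was 9.75 to 11.47 on GFP0 arrays and 7.26 to 9.57 on GFP4 arrays. The mean of 6 of 6 mast cell and basophil genes was 8.63 to 8.84 in GFP0 and 6.14 to 7.72 in GFP4. For both lists the highest GFP4 mean was on replicate 2.

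The main question was which Hox genes differ with GFP level. Hoxa5 and Hoxb5, both of paralogue group 5, rose from GFP0 to GFP4, by 0.44 ± 0.08 and 0.42 ± 0.09 log2 units per level (moderated SE). They were the 2 genes of 33 past an adjusted p of 0.05 for the slope (limma, Benjamini-Hochberg over all genes), and none fell. Of all 18194 genes, 3.35% passed, 2.28% upward. At an unadjusted p under 0.05, 6 Hox genes were higher (Hoxa2, Hoxa5, Hoxa9, Hoxb4, Hoxb5 and Hoxb6) and 0 lower, beside 9.71% of all genes higher and 7% lower. The slopes of the other Hox genes ran from -0.13 to 0.10 per level. In the text below, slopes are in log2 units per GFP level.

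Hoxa5 encodes a homeodomain factor of the middle of the A cluster, known to bias progenitors between the erythroid and myeloid lineages. Its log2 expression was 8.20 and 7.80 in GFP0, 8.19, 7.74 and 9.30 in GFP1, 8.46, 8.64 and 9.46 in GFP2, 9.15 and 9.08 in GFP3, and 10.00, 9.71, 9.80 and 9.79 in GFP4. All 4 GFP4 arrays lay above every other array, and the means rose at each step, although 1 GFP1 array and 1 GFP2 array lay above both GFP3 arrays. The slope had an adjusted p of 0.0151 (limma). GFP4 exceeded GFP0 by 1.82 ± 0.37 log2 units (adjusted p = 0.0281, limma) and GFP1 by 1.42 ± 0.32 (adjusted p = 0.0599, limma).

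The Hoxa5 result rests on 1 of the gene's 2 probe sets. The dimmer one, whose name ends in _x_at, a suffix that marks probes able to match other transcripts, read 9.62 and 8.82 in GFP0, 8.33, 8.78 and 8.51 in GFP1, 7.99, 8.57 and 7.95 in GFP2, 8.997 and 8.57 in GFP3, and 9.26, 8.90, 8.92 and 8.85 in GFP4. Its lowest mean was in GFP2, and all GFP4 arrays lay between the 2 GFP0 arrays. Its slope was -0.02 ± 0.06 (adjusted p = 0.887 among all probe sets, limma), against 0.44 for the brighter one (adjusted p = 0.0196 in the same fit). The mean over both probe sets kept a slope of 0.21 (adjusted p = 0.0475, limma), and its GFP4 to GFP0 difference of 0.79 did not pass (adjusted p = 0.109, limma).

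Hoxb5, known as a marker of long-term repopulating stem cells, read 6.85 and 6.28 in GFP0, 6.72, 6.78 and 7.23 in GFP1, 5.92, 6.93 and 7.64 in GFP2, 7.98 and 8.42 in GFP3, and 7.48, 8.39, 7.97 and 8.20 in GFP4. GFP0 and GFP1 arrays lay below all GFP3 and GFP4 arrays, GFP2 spanned from the gene's lowest value to within the GFP4 range, and GFP3 and GFP4 overlapped. The slope had an adjusted p of 0.0253 (limma). The difference of 1.45 ± 0.39 between GFP4 and GFP0 did not pass (adjusted p = 0.0895, limma), nor did that of 1.37 between GFP3 and GFP2 (unadjusted p = 0.00598, limma), the Hox step with the lowest p. This is the single probe set of Hoxb5, so no second one could be compared.

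Both calls depended on the small GFP0 group. Without GFP0 replicate 1 the slopes were 0.48 for Hoxa5 (adjusted p = 0.0577, limma) and 0.48 for Hoxb5 (adjusted p = 0.0727), and without GFP0 replicate 2 they were 0.40 (adjusted p = 0.0753) and 0.36 (adjusted p = 0.113). The Hoxb5 call was also lost without GFP3 replicate 2 (adjusted p = 0.0876) or GFP4 replicate 4 (adjusted p = 0.0597). Array quality weights, leaving out the GFP0 and GFP4 arrays numbered 1, and covariates for RNA quality each left 0 Hox genes past the slope threshold, with slopes of 0.33 to 0.46 for Hoxa5 and 0.40 to 0.51 for Hoxb5. The RNA quality measure, the 3 prime minus 5 prime difference of the Actb probe sets, averaged 4.45 in GFP0, 3.96 in GFP1, 3.71 in GFP2, 4.104 in GFP3 and 4.64 in GFP4. The same difference of Gapdh averaged 5.15, 5.53, 5.63, 6.34 and 5.80 in that order, lowest in GFP0 and highest in GFP3. The part of RNA quality in the result was not tested beyond that fit.

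**Figure D1:**
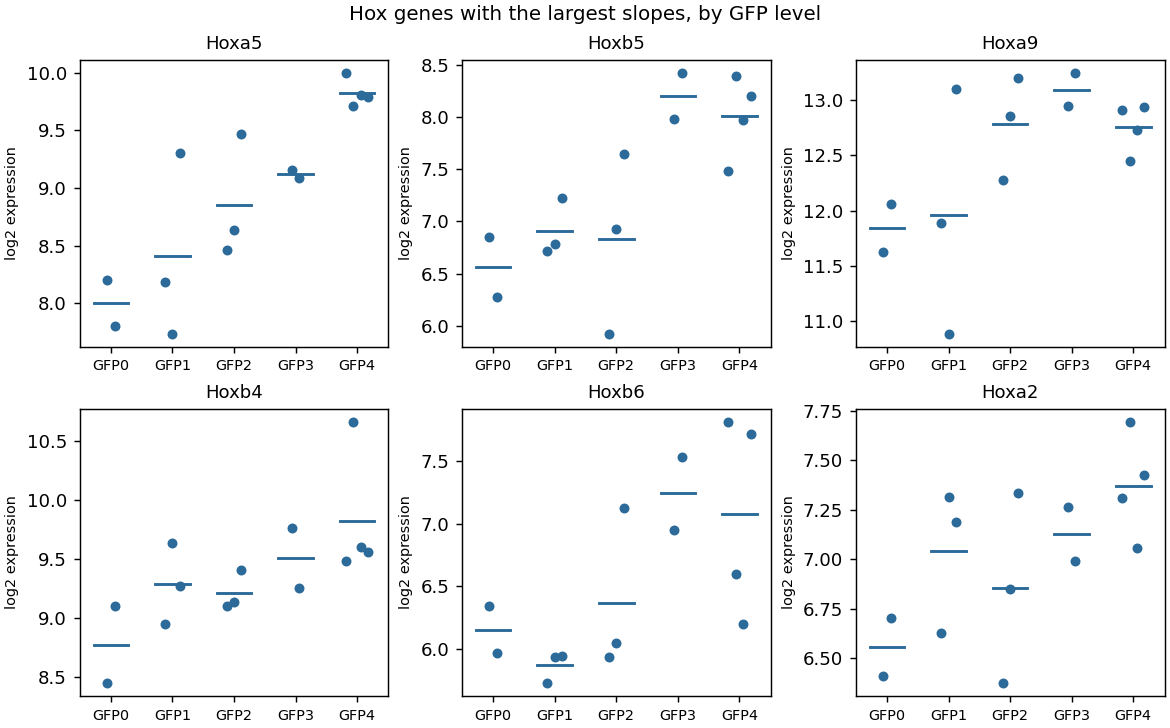
Log2 expression (vertical axes, each on its own scale) of the 6 Hox genes with an unadjusted slope p under 0.05 at the 5 GFP levels (horizontal axes). Points are arrays and lines are group means; the 4 GFP4 points of Hoxa5 (9.71 to 10.00) sit above all its other points, while Hoxb5 at GFP3 (7.98 and 8.42) and GFP4 (7.48 to 8.39) overlap.

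A further 4 genes had an unadjusted p under 0.05 without passing the adjusted threshold. Hoxa9, the A cluster gene best known from stem cell self-renewal and from leukemia, read 11.62 and 12.06 in GFP0, 11.89, 10.88 and 13.10 in GFP1, 12.28, 12.86 and 13.21 in GFP2, 12.95 and 13.25 in GFP3, and 12.91, 12.45, 12.73 and 12.94 in GFP4. GFP0 lay below all arrays of GFP2, GFP3 and GFP4, the GFP1 arrays spanned nearly the whole range, and the highest mean was in GFP3. Its slope was 0.30 ± 0.10 (adjusted p = 0.146, limma). Without GFP1 replicate 3, the array at 13.10, it was 0.36 (adjusted p = 0.0218). The gene's other probe set read 9.05 and 8.61 in GFP0, 8.88, 9.60 and 9.47 in GFP1, 9.29, 9.21 and 9.13 in GFP2, 9.48 and 9.47 in GFP3, and 9.46, 10.43, 9.98 and 9.86 in GFP4. Its slope was 0.24 ± 0.06 (adjusted p = 0.0618 among all probe sets, limma), and the mean over both probe sets passed, at 0.27 (adjusted p = 0.0179, limma).

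Hoxb4, whose overexpression is known to expand stem cells, read 8.45 and 9.10 in GFP0, 8.95, 9.63 and 9.28 in GFP1, 9.10, 9.14 and 9.41 in GFP2, 9.76 and 9.26 in GFP3, and 9.48, 10.66, 9.60 and 9.56 in GFP4. The GFP4 arrays lay above both GFP0 arrays but overlapped GFP1 and GFP3, and 1 of them stood far above the others. The slope was 0.23 ± 0.07 (adjusted p = 0.12, limma) and the GFP4 to GFP0 difference 1.05 ± 0.33 (adjusted p = 0.141). A second probe set of Hoxb4 had a slope of 0.07 ± 0.06 (adjusted p = 0.615 among all probe sets, limma).

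Hoxb6, the neighbour of Hoxb5 in the cluster, read 6.34 and 5.97 in GFP0, 5.73, 5.94 and 5.94 in GFP1, 5.94, 6.05 and 7.13 in GFP2, 6.95 and 7.53 in GFP3, and 7.81, 6.60, 6.20 and 7.72 in GFP4. The GFP4 arrays fell into a high and a low pair, and 1 of the low pair lay between the GFP0 arrays. The slope was 0.32 ± 0.10 (adjusted p = 0.106, limma), and GFP4 exceeded GFP1 by 1.21 ± 0.39 (adjusted p = 0.178). Hoxa2, a hindbrain patterning gene at the anterior end, read 6.41 and 6.70 in GFP0, 6.63, 7.31 and 7.19 in GFP1, 6.37, 6.85 and 7.34 in GFP2, 7.26 and 6.99 in GFP3, and 7.31, 7.69, 7.06 and 7.42 in GFP4. Its GFP4 arrays lay above both GFP0 arrays and overlapped GFP1, GFP2 and GFP3, with a slope of 0.17 ± 0.06 (adjusted p = 0.179, limma).

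**Figure D2:**
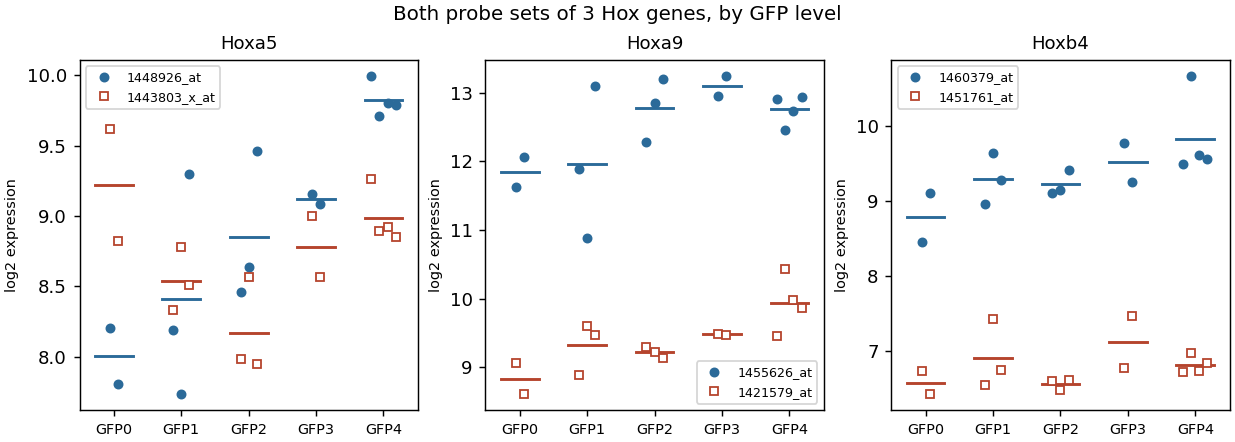
Log2 expression (vertical axes) by GFP level (horizontal axes) on both probe sets of Hoxa5, Hoxa9 and Hoxb4; points and squares are arrays, lines are group means, and the heights of different probe sets are not comparable. The Hoxa5 probe sets part ways (slopes 0.44 and -0.02), while both Hoxa9 probe sets have positive slopes (0.30 and 0.24).

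The sequences just upstream of 3 nearby A cluster genes are shown because, on their brightest probe sets, Hoxa5 passed, Hoxa9 was next by slope in the cluster and Hoxa7, which lies between them, had a slope of 0.01 ± 0.05 (adjusted p = 0.963, limma). No test compared these slopes, and the second Hoxa5 probe set had a slope of -0.02. They are the 250 bases before the RefSeq start, on the minus strand of build GRCm38.p6, at chr6:52204588-52204837 for Hoxa5, chr6:52218574-52218823 for Hoxa7 and chr6:52227371-52227620 for Hoxa9. Capitals mark matches, on either strand, to TGATNNAT (a motif of PBX and HOX pairs), TGACAG (MEIS), CCAAT (NF-Y) or GGGCGG (SP1).
Hoxa5: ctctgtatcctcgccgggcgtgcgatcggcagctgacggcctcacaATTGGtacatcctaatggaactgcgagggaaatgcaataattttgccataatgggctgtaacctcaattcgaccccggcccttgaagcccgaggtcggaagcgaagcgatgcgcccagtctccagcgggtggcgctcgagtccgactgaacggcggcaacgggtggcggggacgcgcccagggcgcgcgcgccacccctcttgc
Hoxa7: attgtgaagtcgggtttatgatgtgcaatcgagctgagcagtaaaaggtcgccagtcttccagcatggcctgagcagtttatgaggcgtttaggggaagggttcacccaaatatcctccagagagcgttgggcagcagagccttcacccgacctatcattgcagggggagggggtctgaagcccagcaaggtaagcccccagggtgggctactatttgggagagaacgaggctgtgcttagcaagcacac
Hoxa9: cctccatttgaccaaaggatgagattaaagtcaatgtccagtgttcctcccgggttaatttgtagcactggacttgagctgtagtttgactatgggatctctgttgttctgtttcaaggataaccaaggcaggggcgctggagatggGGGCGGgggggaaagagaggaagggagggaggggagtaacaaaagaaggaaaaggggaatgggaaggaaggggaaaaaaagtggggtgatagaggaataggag

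The Hoxa5 window held 1 CCAAT match, read on the other strand as ATTGG, the Hoxa9 window 1 GGGCGG match and the Hoxa7 window no match. No match overlapped another in these 3 windows. Over the 21 windows of the 19 Hox genes that the RefSeq promoter table holds, TGATNNAT occurred in 3, TGACAG in 2, CCAAT in 11 and GGGCGG in 8. Of all 32851 windows of that length, 7.68%, 15.9%, 33.8% and 32.7% held the same motifs. Hoxb5 was not among the 19 genes. A match describes the letters and not a bound site.

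Across the clusters, the median slope was 0.06 in A, 0.08 in B, -0.02 in C and -0.02 in D, beside 0.00080 over all 33 Hox genes and -0.01 over all genes. A positive slope was found for 7 of 9 A genes, 6 of 9 B genes, 2 of 7 C genes and 2 of 8 D genes, and for 45.2% of all genes. The 6 genes with an unadjusted p under 0.05 were 3 of the A cluster and 3 of the B cluster, with 0 of 15 in C and D. By place along the cluster, 4 of 12 central genes (groups 4 to 8) were among them, 1 of 7 anterior genes (groups 1 to 3) and 1 of 14 posterior genes (groups 9 to 13). Of all genes, 9.71% were higher and 7% lower at an unadjusted p under 0.05. These counts describe the members, and no test compared the clusters as wholes.

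**Figure D3:**
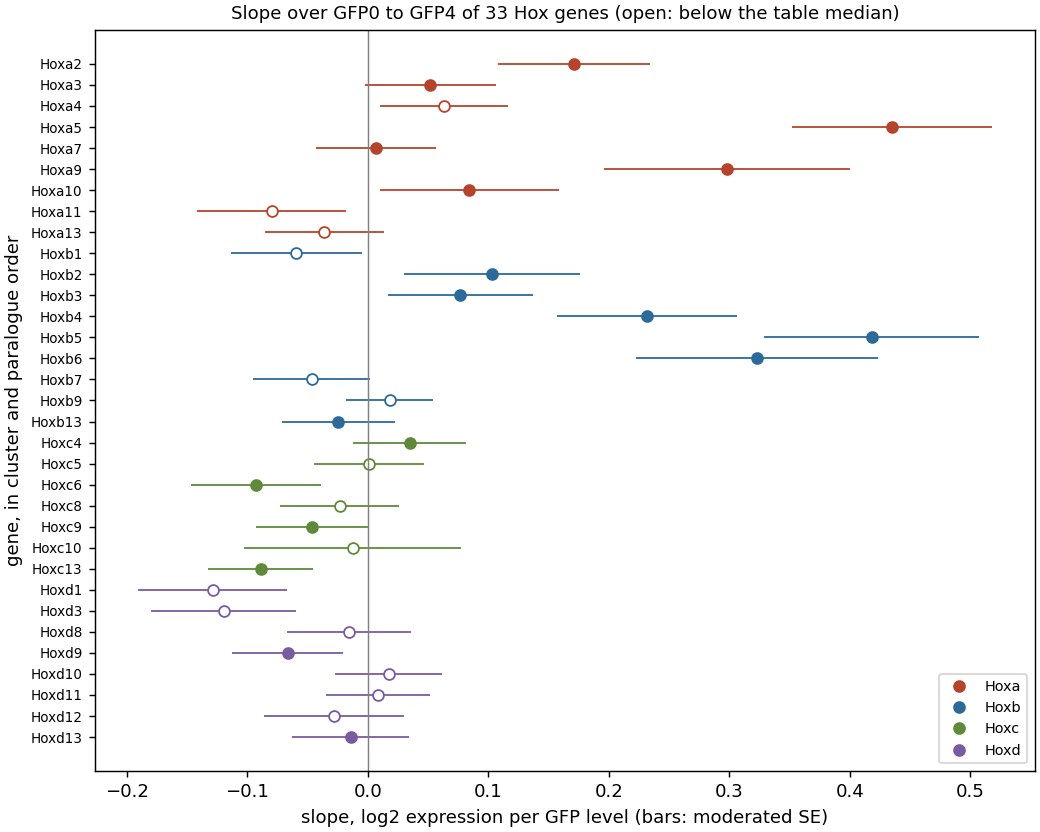
Slope in log2 units per GFP level (horizontal axis) of the 33 Hox genes, ordered by cluster and paralogue number (vertical axis), with bars for the moderated SE. Filled points are genes whose highest group mean reaches the table median of 7.03; Hoxa5 and Hoxb5 lie farthest right (0.44 and 0.42), and C and D genes lie between -0.13 and 0.03.

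A probe set near the floor of an array can show little change, and 18 of the 33 genes had a highest group mean at or above the median of the whole table, 7.03. They were 6 of A, 6 of B, 4 of C and 2 of D. Hoxb5 and Hoxb6 were among them only through their GFP3 and GFP4 means, Hoxc4 only through GFP0 and GFP4, and Hoxc13 only through GFP0. Hoxa2, Hoxa10, Hoxb2 and Hoxc6 also fell below the median at some levels, so no slope count is read from this split. Brightness does not show that a transcript is present, and no detection calls come with the values.

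Of the brighter genes without an unadjusted p under 0.05, Hoxa3 had a slope of 0.05 ± 0.05, with means of 8.24 in GFP0 and 8.46 in GFP4. A dimmer Hoxa3 probe set had a slope of 0.27 ± 0.07 without passing (adjusted p = 0.0826 among all probe sets, limma), while the other 2 Hoxa3 probe sets had slopes of -0.02 and 0.12. Hoxa7, a neighbour of Hoxa9 that MLL complexes also keep active, had means of 8.35, 8.22, 8.13, 8.03 and 8.48 from GFP0 to GFP4. Hoxa10, known from progenitor expansion and myeloid cells, had means of 7.11, 6.69, 7.18, 7.25 and 7.25 and a slope of 0.08 ± 0.07. Neither gene passed any contrast.

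In the B cluster Hoxb2 had a slope of 0.10 ± 0.07 and its highest mean, 7.72 ± 0.55 (SD, n = 4), in GFP4, which exceeded GFP1 by 0.71 ± 0.29 (unadjusted p = 0.0263, adjusted p = 0.297, limma). Hoxb3, known with Hoxb4 from stem cell regeneration, had means from 7.49 in GFP2 to 7.95 in GFP4 and a slope of 0.08 ± 0.06. A dimmer Hoxb3 probe set had a slope of 0.20 ± 0.07 without passing (unadjusted p = 0.0101, adjusted p = 0.151 among all probe sets, limma). Hoxb13, the posterior gene that lies apart from the rest of its cluster, had a slope of -0.02 ± 0.05.

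None of the 6 brighter C and D genes passed, and their differences between GFP4 and GFP0 ran from -0.44 to 0.13. Hoxc6 read 8.11 and 7.59 in GFP0, 6.98, 7.67 and 7.07 in GFP1, 7.05, 7.06 and 6.74 in GFP2, 7.28 and 7.10 in GFP3, and 7.69, 7.45, 7.38 and 7.11 in GFP4. It was lowest in GFP2 and its slope was -0.09 ± 0.05 (adjusted p = 0.429, limma). This probe set also carries the _x_at suffix of probes able to match other transcripts. The dimmer Hoxc6 probe sets had slopes of -0.05 ± 0.06 and 0.02 ± 0.04 (adjusted p = 0.734 and 0.823 among all probe sets, limma). The slopes of Hoxc4, Hoxc9, Hoxc13, Hoxd9 and Hoxd13 were 0.03, -0.05, -0.09, -0.07 and -0.01. The 15 dimmer genes, Hoxa4, Hoxa11, Hoxa13, Hoxb1, Hoxb7, Hoxb9, Hoxc5, Hoxc8, Hoxc10, Hoxd1, Hoxd3, Hoxd8, Hoxd10, Hoxd11 and Hoxd12, had slopes from -0.13 for Hoxd1 to 0.06 for Hoxa4.

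The 2 arrays of narrow spread had many of the highest Hox values. GFP0 replicate 1 or GFP4 replicate 1 was the highest array for 12 of the 15 dimmer Hox genes (80%) and for 62.3% of all dimmer genes, and for 11 of the 18 brighter Hox genes (61.1%) and 25.7% of all brighter genes. Genes were split by their highest group mean, to which these 2 arrays contribute. Hox and other genes were not matched by level, so the shares are a description. For Hoxd1, GFP0 replicate 1 read 4.81 and GFP4 replicate 1 read 4.52, whereas the other arrays ran from 3.53 to 4.15. Hoxd1 was the Hox gene lower in GFP4 than in GFP0 at an unadjusted p under 0.05, by -0.63 ± 0.27 (unadjusted p = 0.0398, adjusted p = 0.311, limma).

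**Figure D4:**
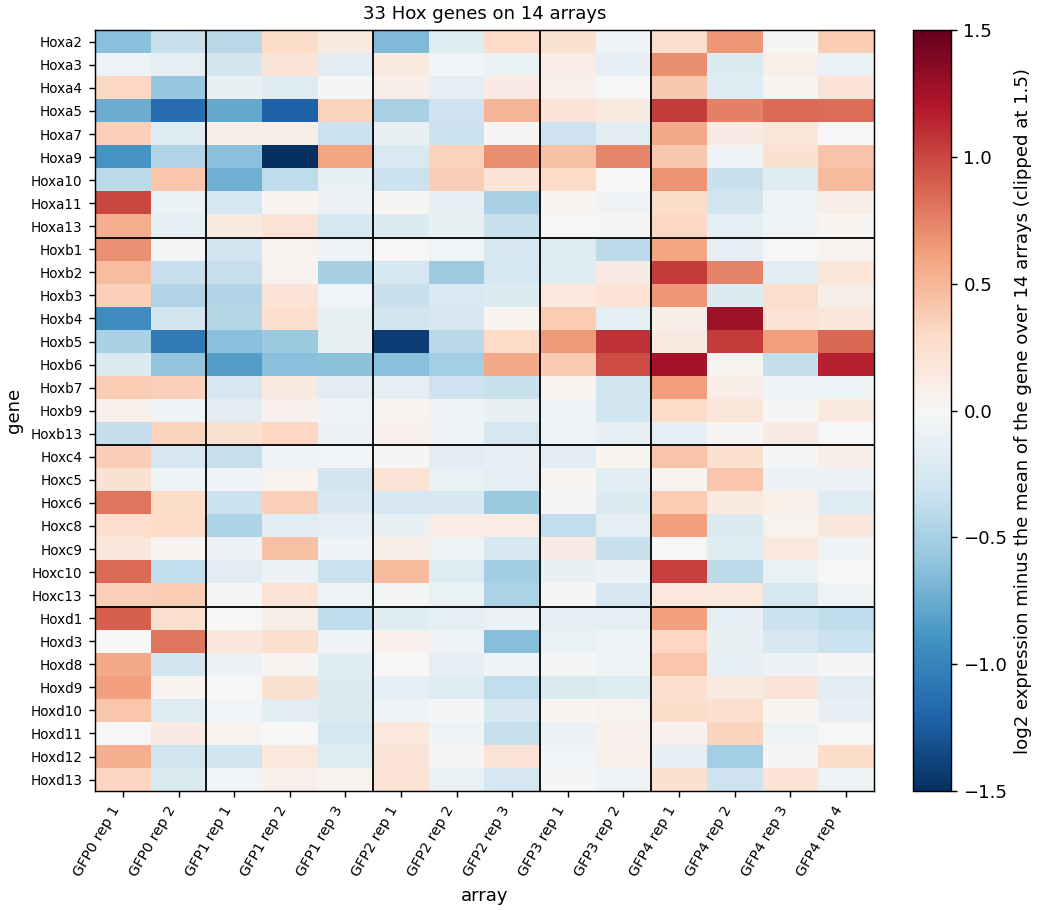
Log2 expression minus each gene's mean over the 14 arrays (colour, clipped at 1.5 either way) for the 33 Hox genes (rows) on the 14 arrays (columns); black lines part the clusters and the GFP levels. Hoxa5, Hoxa9, Hoxb4, Hoxb5 and Hoxb6 tend from blue at left to red at right, and GFP0 replicate 1 and GFP4 replicate 1 are red in many other rows.

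For the largest contrast, GFP4 against GFP0, Hoxa5 was the 1 Hox gene of 33 to pass, beside 1.68% of all genes. The call was lost without either GFP0 array, GFP4 replicate 3 or GFP4 replicate 4 (adjusted p from 0.0534 to 0.117, limma), and without GFP2 replicate 1 Hoxb5 passed as well (adjusted p = 0.0435). At an unadjusted p under 0.05, Hoxa2, Hoxa5, Hoxb4 and Hoxb5 were higher and Hoxd1 was lower, beside 8.72% of all genes higher and 5.99% lower. For GFP4 against GFP1, which leaves out the 2 GFP0 arrays, 0 Hox genes passed in limma, beside 0.989% of all genes, and 5 had an unadjusted p under 0.05, all higher in GFP4, beside 5.31% of all genes higher. They were Hoxa5, Hoxb2, Hoxb5, Hoxb6 and Hoxc8. Without GFP1 replicate 3 Hoxa5 passed here and in the F test. The moderated F test for any difference between levels passed 0 Hox genes, beside 0.698% of all genes, with 4 at an unadjusted p under 0.05 (Hoxa5, Hoxb5, Hoxb6 and Hoxc6), beside 12.8% of all genes. For the 4 steps between neighbouring levels 0 Hox genes passed in limma, beside 0% of all genes in each step. At an unadjusted p under 0.05, 3 were lower in GFP1 than in GFP0 (Hoxc6, Hoxc8 and Hoxd1), beside 4.9% of all genes, and Hoxb5 was higher in GFP3 than in GFP2, beside 0.791%. Comparisons with GFP4 or GFP0 share those arrays.

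Paralogues were compared within each array, by the slope of the difference between 2 genes, for the 11 pairs in 7 paralogue groups in which both genes were among the brighter 18. None of the 11 differences passed after Benjamini-Hochberg adjustment over the pairs in an exact two-sided permutation test over all 25225200 assignments of the 14 arrays to the levels, and 4 had an unadjusted p under 0.05. The slope of Hoxb6 exceeded that of Hoxc6 by 0.42 ± 0.13 per level (SE from the spread within levels), which did not pass (adjusted p = 0.0582, exact permutation test). Hoxb6 entered the pairs through GFP3 and GFP4, the levels at which it was high, so this difference is a description. Hoxc6 was read in it from its _x_at probe set. Hoxa9 differed from Hoxc9 by 0.34 ± 0.15 and from Hoxd9 by 0.36 ± 0.15 (adjusted p = 0.105 for both, exact permutation test), and Hoxb4 from Hoxc4 by 0.20 ± 0.10 (adjusted p = 0.131). Hoxc4 entered the pairs only through its GFP0 and GFP4 means, and Hoxc13 only through its GFP0 mean. Hoxa2, Hoxb2 and Hoxc6 reached the median at only some levels, so differences with any of these genes are descriptions. The slopes of Hoxa5 and Hoxb5 differed by 0.02 ± 0.09 (adjusted p = 0.877, exact permutation test). Hoxb5 also entered the pairs only through GFP3 and GFP4, where it was high, so this difference is a description too. The third gene of group 5 on the array, Hoxc5, was among the dimmer genes and had a slope of 0.00080 ± 0.05. With the mean over each gene's probe sets, 3 pairs passed. They were Hoxa9 against Hoxc9 at 0.31 and Hoxd9 at 0.33 (adjusted p = 0.0111, exact permutation test), and Hoxb6 against Hoxc6 at 0.36 (adjusted p = 0.0242, same test). The Hoxb6 difference is again a description, since that pair was chosen through the levels at which Hoxb6 was high.

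The opposite-strand transcript annotated at Hoxb5, Hoxb5os, is no member and was looked up after its values were known. It read 8.33 and 10.04 in GFP0, 9.70, 10.23 and 10.38 in GFP1, 10.28, 10.30 and 10.63 in GFP2, 11.12 and 10.82 in GFP3, and 11.08, 10.27, 11.17 and 10.31 in GFP4. GFP0 lay below all arrays of GFP2, GFP3 and GFP4, and GFP0 replicate 1 lay far below the rest. Its slope was 0.39 ± 0.09 (adjusted p = 0.037, limma), and 0.22 without GFP0 replicate 1 (adjusted p = 0.246). The call held in 5 of the 14 fits that left out a single array. In the fit among all probe sets its slope did not pass (adjusted p = 0.0522, limma). Whether its probes read 1 strand alone was not tested. Hoxa11os and Hoxd3os1 had slopes of -0.06 and -0.08 and did not pass.

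The genes flanking the clusters were read as a local comparison, 3 on each side of each cluster. Of 24 neighbours 0 rose and 1 fell in slope (limma), with 0 higher and 3 lower at an unadjusted p under 0.05. Over all genes 3.35% passed, 2.28% upward, and 9.71% were higher and 7% lower at an unadjusted p under 0.05. The nearest neighbours did not pass: Skap2 and Evx1 at the A cluster had slopes of -0.04 and -0.06, Skap1 and Ttll6 at B 0.06 and -0.03, Smug1 and Calcoco1 at C 0.13 and 0.06, and Mtx2 and Evx2 at D -0.24 and -0.06. The gene that fell was Cbx5, which encodes the heterochromatin protein HP1 alpha and lies beyond the C cluster, at -0.36 ± 0.07 (adjusted p = 0.012, limma). That call was lost without either GFP0 array (adjusted p = 0.0648 without replicate 1 and 0.0581 without replicate 2), and with the mean over its probe sets the slope was -0.15 (adjusted p = 0.0523).

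Of 8 measured TALE cofactors 1 rose, beside 2.28% of all genes. Meis1, which binds DNA with HOX and PBX proteins and is known from stem cells and leukemia, read 11.27 and 11.50 in GFP0, 11.14, 12.18 and 12.57 in GFP1, 12.13, 12.37 and 12.87 in GFP2, 13.19 and 12.76 in GFP3, and 12.79, 12.85, 12.74 and 13.18 in GFP4. GFP0 lay below all arrays of GFP2 to GFP4, and GFP3 and GFP4 overlapped. Its slope was 0.40 ± 0.08 (adjusted p = 0.0141, limma), and 0.38 without GFP0 replicate 1 (adjusted p = 0.0935).

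Pbx3, a partner of HOX proteins, read 7.31 and 8.82 in GFP0, 7.03, 8.30 and 8.43 in GFP1, 8.19, 9.08 and 8.83 in GFP2, 8.73 and 9.43 in GFP3, and 9.56, 9.21, 8.80 and 10.37 in GFP4. Its arrays overlapped between GFP0 and GFP4, and the slope of 0.40 ± 0.12 did not pass (adjusted p = 0.0896, limma). The slopes of Meis2, Meis3, Pbx2, Pbx4, Pknox1 and Pknox2 were -0.002, 0.08, 0.10, 0.18, -0.01 and -0.03.

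Of 16 genes of MLL complexes, DOT1L and elongation factors, which act on Hox chromatin, 2 rose, 1 fell and 13 did not pass. Over all genes 3.35% passed, 2.28% upward. Mllt3, a reader of acylated histones that brings DOT1L to chromatin and is known from stem cell maintenance, read 7.40 and 8.00 in GFP0, 7.56, 7.73 and 8.64 in GFP1, 9.17, 9.27 and 9.52 in GFP2, 9.90 and 10.22 in GFP3, and 10.25, 11.08, 10.45 and 10.99 in GFP4. GFP2, GFP3 and GFP4 followed each other without overlap, above all GFP0 and GFP1 arrays. Its slope of 0.81 ± 0.07 (adjusted p = 0.000158, limma) passed in 26 of 26 alternatives.

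Mllt6, a DOT1L partner, rose by 0.25 ± 0.06 (adjusted p = 0.0346, limma), and Dpy30, a core subunit of MLL complexes, fell by 0.24 per level (adjusted p = 0.0431, limma). When single arrays were left out in turn, Mllt6 passed in 6 and Dpy30 in 4 of 14 fits, with adjusted p up to 0.12 and 0.151. With the mean over its probe sets, Mllt6 had a slope of 0.063 (adjusted p = 0.497, limma). Of 19 Polycomb subunits, which hold Hox genes silent, 0 passed in limma, with 3 higher and 1 lower at an unadjusted p under 0.05. Beside these and the lists that follow, 3.35% of all genes passed, 2.28% upward, and 9.71% were higher and 7% lower unadjusted. Of 17 Cdx and retinoid genes, known as upstream inputs to Hox genes in the embryo, 1 rose: Aldh1a1, a retinaldehyde dehydrogenase, at 0.41 ± 0.10 (adjusted p = 0.0369, limma), with 6 of 14 fits passing and a slope of 0.23 without GFP0 replicate 1 (adjusted p = 0.246). Of 20 homeobox genes outside the clusters 1 fell: Satb1, a chromatin organizer with a homeodomain, at -0.62 ± 0.12 (adjusted p = 0.0153, limma; 0.0753 without GFP0 replicate 1 and 0.0708 without replicate 2).

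**Figure D5:**
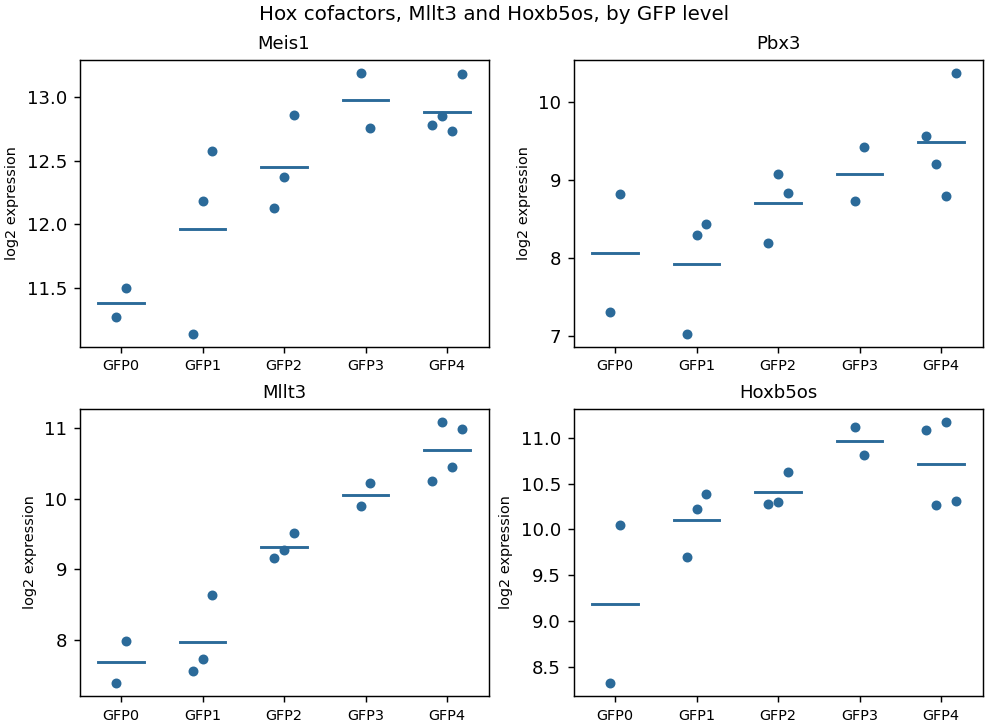
Log2 expression (vertical axes, each on its own scale) of Meis1, Pbx3, Mllt3 and Hoxb5os at the 5 GFP levels (horizontal axes). Points are arrays and lines are group means; Mllt3 lies between 7.40 and 8.64 on GFP0 and GFP1 arrays and between 10.25 and 11.08 on GFP4 arrays, and the GFP0 points of Hoxb5os (8.33 and 10.04) lie far apart.

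Marker genes of stem cells and of myeloid and lymphoid lineages also changed with GFP level. Of 7 measured markers of the sort and of HSCs 3 rose in slope: Procr by 0.78, Mecom by 0.76 and Hlf by 0.65 (adjusted p = 0.00314, 0.00314 and 0.00341, limma). Of 6 mast cell and basophil genes 3 fell, and of 8 neutrophil and monocyte genes 1 fell, Ltf, by 0.63 per level (adjusted p = 0.0286, limma). At an unadjusted p under 0.05, 5 of the 8 neutrophil and monocyte genes and 5 of the 6 mast cell and basophil genes were lower, beside 7% of all genes. Over all genes 3.35% passed the slope, 2.28% upward. Of 6 T and NK cell genes 1 fell, Nkg7, and of 5 B cell genes 1 fell, Vpreb1. Of 10 endothelial and stromal genes and 5 erythroblast genes 0 passed in limma, with 0 at an unadjusted p under 0.05. In sorted bulk samples a change in the share of cells of a type and a change in RNA per cell cannot be told apart, and the part of these markers in the Hox values was not tested.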

How the data were processed

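RNA was amplified, labelled with biotin and hybridised to Affymetrix arrays, per the labels' protocols. The submitters' processing notes name GCOS, RMA and affy without versions. The deposited values are log2 expression per probe set, as their range of 2.69 to 15.1 shows. The genome build behind the probe sets is not given in the sources used here.

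Of 45101 probe sets 34958 had 1 symbol in the platform annotation, 932 several and 9211 none, and 3 with several Hox symbols were left out. Symbols were checked against RefSeq by gene identifier (34754 matched, 0 changed). A group-means model was fitted to 18194 genes on 14 arrays with limma 3.58.1 (R 4.3.3) and empirical Bayes (9 residual and 3.99 prior degrees of freedom). Tests were two-sided and adjusted over all genes, with a threshold of 0.05. The slope weighted levels equally.

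Hox genes were named if they passed a contrast or their highest group mean reached the table median, and others by range. Partner genes were named if they passed the slope or GFP4 against GFP0, with all measured TALE genes and the nearest neighbours. Members and lists were chosen with earlier results of these data known. In simulated data for the slope over 18194 genes, 42% of slopes of 0.25 and 89% of 0.5 were recovered. There, 100 genes were given each slope as a straight line, with independent noise. The data differ from that setting, with 609 genes called, so these rates need not hold for the Hox genes. Alternatives changed scaling, filter, probe sets, variance model, weights, arrays and covariates.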

Additional observations from a re-analysis of the deposited data

Results flagged for a closer look

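Hoxb4 on GFP4 replicate 2 stood apart from the rest of its group. It read 10.66, whereas the other GFP4 arrays ran from 9.48 to 9.60, so that the gap was 0.899 of the group's range, above Dixon's critical value of 0.829 for 4 samples. GFP4 was the only group large enough for this comparison, which was made for 33 Hox genes and picked out 1. Chance picks out about 1 in 20 such groups. GFP4 replicate 2 also had the highest GFP4 mean of the neutrophil and monocyte genes (9.57) and of the mast cell and basophil genes (7.72). Whether this bears on Hoxb4 was not tested.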

How the results depend on the processing

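The slope of Hoxa5 was positive in 26 of 26 alternatives and passed in 20 (0.21 to 0.48), and that of Hoxb5 was positive in 26 and passed in 18 (0.36 to 0.51). The count of Hox genes past the slope, 2, became 0 with array quality weights, without the GFP0 and GFP4 arrays numbered 1, without these and GFP4 replicate 2, and with the RNA quality covariates. The count for GFP4 against GFP0, 1, became 0 in those same 4 settings, with the mean over probe sets and with the replicate number as a block. The count for GFP4 against GFP1 became 1 with cyclic loess, without dim genes and with the mean over probe sets, and that for any difference became 1 with array quality weights. Paralogue pairs passing went from 0 to 3 with the mean over probe sets, among them Hoxb6 against Hoxc6, a difference that is only a description. Leaving out 1 array at a time gave 0 to 3 Hox genes for the slope (0 without either GFP0 array, 1 without GFP3 replicate 2 or GFP4 replicate 4, and 3 without GFP1 replicate 3), 0 to 2 for GFP4 against GFP0 (0 without either GFP0 array, GFP4 replicate 3 or GFP4 replicate 4, and 2 without GFP2 replicate 1), and 0 to 1 for GFP4 against GFP1 and for any difference (1 without GFP1 replicate 3). The causes were not tested. Alternatives for Hoxb5os and the partner genes were added after seeing the data. Over all genes the slope called 609, and 182 to 768 without single arrays and 90 to 728 under the other alternatives. The other scalings moved the median of all genes by less than 0.1.

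Slopes near 0 changed sign: Hoxa7 to -0.018 with cyclic loess, Hoxa10 to -0.013 with the mean over probe sets and -0.031 without the arrays numbered 1, Hoxd13 to 0.026 without these and 0.051 without GFP4 replicate 2 as well, and Hoxb13 to 0.016 with the covariates. Over single arrays left out, Hoxa7 ran from -0.048 to 0.062, Hoxb3 from -0.0031 to 0.16, Hoxb13 from -0.095 to 0.046, Hoxc4 from -0.027 to 0.10 and Hoxd13 from -0.069 to 0.041. The difference between Hoxa5 and Hoxb5 turned to -0.21 with the mean over probe sets and -0.047 without the arrays numbered 1, that between Hoxb13 and Hoxd13 to 0.010 with the former and that between Hoxc9 and Hoxd9 to -0.015 with the latter.

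Some same-numbered arrays of different levels deviated together, but most such pairs did not. Their correlations ran from -0.26 to 0.58 (median 0.05), and 9 of 23 pairs were over 0.1. For arrays with other numbers they ran from -0.63 to 0.48 (median -0.05), and 20 of 54 pairs were over 0.1. Deviations were taken from group means, so in GFP0 and GFP3, with 2 arrays each, 1 array mirrors the other. The pairs are thus not independent, and these values cannot decide whether equal numbers mark a pairing. The GFP0 and GFP4 arrays of narrow spread, which share a number, had a correlation of 0.53. With the replicate number as a block, the slope count was 2, with Hoxa5 at 0.41 and Hoxb5 at 0.39, and GFP4 against GFP0 passed 0 Hox genes, with Hoxa5 at 1.59 (adjusted p = 0.074, limma). The labels do not say whether equal numbers mark a shared sort. Detection calls were not used here, so dim genes could not be told from undetected ones.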
